A study of Mus musculus with 14 samples.

Results

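Extracellular ATP and the adenosine made from it are read by regulatory T cells (Tregs) through a chain of proteins, most on the cell surface. Here 7 genes of this chain were followed in all 14 RNA-seq libraries of a study of the transcription factor JunB in intestinal Tregs. The genes were chosen by symbol, through their Ensembl IDs, out of 53564 genes that both deposited count tables list. Entpd1 encodes CD39 and Nt5e encodes CD73, the pair of ectoenzymes that turn ATP into adenosine. Adora2a encodes the adenosine receptor best known in T cells. Ada encodes adenosine deaminase and Adk adenosine kinase, which remove adenosine, and Dpp4 encodes CD26, a surface peptidase that in humans anchors adenosine deaminase on T cells. P2rx7 encodes P2X7, an ATP-gated cation channel.

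ATP released by damaged or activated cells acts as a danger signal, and CD39 with CD73 is a textbook route by which Tregs convert that signal into a suppressive one. Adenosine bound by that receptor raises cyclic AMP in T cells and dampens their activation. P2X7 works in the opposite sense for the Treg itself, since its opening can lead to shedding of surface proteins and to cell death, and in mice the ectoenzyme ART2 can open it by attaching ADP-ribose.

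RNA-seq was performed on sorted Tregs of 6 groups. Tregs of Peyer's patches (PP), the lymphoid follicles of the small intestine, came from untreated male mice of 8 to 12 weeks in which Cre is made from the Foxp3 locus (Foxp3-YFP-cre), with 2 JunB F/+ (HET) and 2 JunB F/F (KO) animals. The study saw unintended germline deletion in that line, and its sort gate takes in less than all Tregs. The other 10 libraries came from mice with Foxp3-EGFP-cre-ERT2 and a Rosa26 tdTomato reporter, aged 10 to 12 weeks, all of them given tamoxifen (8 mg by gavage, 3 times, on days 0, 1 and 3) and analysed on day 7. From these, CD25- PP Tregs were sorted from 2 JunB F/+ (iHET) and 2 JunB F/F (iKO) mice, and colonic lamina propria (coLP) Tregs without a gate on CD25 from 3 iHET and 3 iKO mice. In the inducible line mouse number 1 of each group was male and the others were female. Every sorted cell of that line carried EGFP and tdTomato, so Cre had been active in it, but tdTomato does not show that Junb itself was cut.

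Libraries held from 26274861 to 35508709 counts, and 3 counts, the smallest number read here as above 0, lie between 0.0845 and 0.114 CPM, which are counts scaled to the size of the library. CPM below are TMM-normalised, a scaling that trims the genes with extreme ratios between libraries. The 10 listed Treg markers were detected in every library, with Foxp3 between 59.7 and 155 CPM. Junb lay between 4182 and 8471 CPM in the 7 heterozygous libraries and between 561 and 1029 CPM in the 7 deleted ones, so it matched the labelled genotype in each. Its log2 fold change was -3.11 in PP, -2.44 in CD25- PP and -2.91 in coLP Tregs, with false discovery rates (FDR) of 4.74e-05, 0.0940 and 0.0183 in edgeR's quasi-likelihood test. Because these are bulk samples, less RNA per cell and fewer cells of a type cannot be told apart.

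The members lie on 6 chromosomes of GRCm38. Entpd1 (ENSMUSG00000048120.16) occupies chr19:40612366-40741602 on the plus strand and Nt5e (ENSMUSG00000032420.8) chr9:88327197-88372092 on the plus strand. Adora2a (ENSMUSG00000020178.6) lies at chr10:75316877-75334784 and Adk (ENSMUSG00000039197.10) at chr14:21052574-21448569, both on the plus strand. Chromosome 2 holds both Ada (ENSMUSG00000017697.3, chr2:163726584-163750239) and Dpp4 (ENSMUSG00000035000.8, chr2:62330073-62412231), on the minus strand. P2rx7 (ENSMUSG00000029468.17) is at chr5:122643911-122691432 on the plus strand. Reads were counted over exons without regard to strand. P2rx7 shares 119 exon bases with Mir8115 and Dpp4 shares 232 with Gm13561, while the exons of the other 5 members overlap no annotated gene.

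JunB is a subunit of AP-1, which binds TGANTCA, and cyclic AMP acts through factors that bind TGACGTCA. Both motifs were searched on both strands in RefSeq promoter windows of GRCm38.p6, from 250 bases before to 50 bases after a transcript start, of which 9 belong to 6 of the members. Adora2a has no entry. An AP-1 motif was found in 1 of the 9 windows, that of the first start of P2rx7, against 2565 of all 32851 windows (7.81%). The cyclic AMP motif was in none of the 9 windows and in 588 of all windows (1.79%). The bases before the start are shown for P2rx7, because it holds the motif and differed most between the organs, for Dpp4, which moved in the same direction, and for Entpd1 (its second start), which moved the other way. Capitals mark the AP-1 letters, at chr5:122643678-122643684. These are matches of letters, not sites of binding.
P2rx7, chr5:122643677-122643910, plus strand: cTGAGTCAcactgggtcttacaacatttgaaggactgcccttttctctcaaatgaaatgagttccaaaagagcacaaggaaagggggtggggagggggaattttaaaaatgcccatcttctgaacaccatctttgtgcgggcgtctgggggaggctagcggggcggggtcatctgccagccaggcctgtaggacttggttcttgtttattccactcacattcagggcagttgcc
Dpp4, chr2:62412232-62412481, minus strand: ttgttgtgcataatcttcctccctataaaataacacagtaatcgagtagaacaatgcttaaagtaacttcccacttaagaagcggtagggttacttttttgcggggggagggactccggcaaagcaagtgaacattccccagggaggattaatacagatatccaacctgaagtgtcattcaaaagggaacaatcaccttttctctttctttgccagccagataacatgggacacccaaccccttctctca
Entpd1, chr19:40659520-40659769, plus strand: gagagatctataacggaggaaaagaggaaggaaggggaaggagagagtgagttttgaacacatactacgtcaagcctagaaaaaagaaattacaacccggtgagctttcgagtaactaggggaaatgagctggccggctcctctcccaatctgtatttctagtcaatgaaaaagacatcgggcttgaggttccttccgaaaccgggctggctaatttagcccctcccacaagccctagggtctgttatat

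Nt5e was the most abundant of the 7 genes per length in every group, and Ada the least. Levels between genes are given as CPM per kb of exon. In PP Tregs of HET mice Nt5e stood at 189 ± 7.15 CPM per kb (SD, n = 2), above 98.3% of the 12216 genes with a level in that table. It was followed by Adora2a at 63.6 ± 9.87, P2rx7 at 38.0 ± 2.32, Dpp4 at 25.6 ± 2.74, Entpd1 at 11.8 ± 0.226, Adk at 10.5 ± 1.08 and Ada at 3.36 ± 0.576 CPM per kb. CD73 mRNA was thus far above CD39 mRNA on this scale, and the enzyme that clears adenosine by deamination was the scarcest of the set. Entpd1 and Adk changed places when the longest transcript was used as the length (15.6 and 21.1 CPM per kb), so their order is not settled.

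Below Nt5e, CD25- PP and coLP Tregs of iHET mice differed in their order of means. The coLP order was also that of PP Tregs of HET mice. Those came from the other line, with other sequencing and no tamoxifen, so this likeness was not tested. In CD25- PP Tregs of iHET mice P2rx7 came next at 45.3 ± 2.19 CPM per kb, ahead of Adora2a at 32.8 ± 18.3. The iHET libraries of Adora2a ran from 19.8 to 45.8 CPM per kb and overlapped those of P2rx7 and Dpp4. Adora2a lay above P2rx7 in iHET number 1 (45.8 against 43.8 CPM per kb) and below it in number 2 (19.8 against 46.9). In iKO mice the means were 43.9 for P2rx7 and 43.7 for Adora2a, so the order of this pair in CD25- PP Tregs is not settled. In coLP Tregs of iHET mice the level per kb was 61.4 for Nt5e, 38.9 for Adora2a, 25.6 for P2rx7, 14.5 for Dpp4, 9.998 for Entpd1, 7.33 for Adk and 2.78 for Ada. There the ranges of Adora2a and P2rx7, Dpp4 and Entpd1, and Entpd1 and Adk overlapped over the 3 libraries. Adora2a lay below P2rx7 in number 1 (27.5 against 32.4 CPM per kb), so this order changed between libraries. Dpp4 lay above Entpd1 within each library (19.3 against 12.5, 11.7 against 8.74 and 12.4 against 8.76). Entpd1 lay above Adk within each (Adk at 8.85, 6.32 and 6.81), but with the longest transcript as the length the means were 13.2 and 14.7. The plot of levels per length shows the 6 groups side by side.

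**Figure D1:**
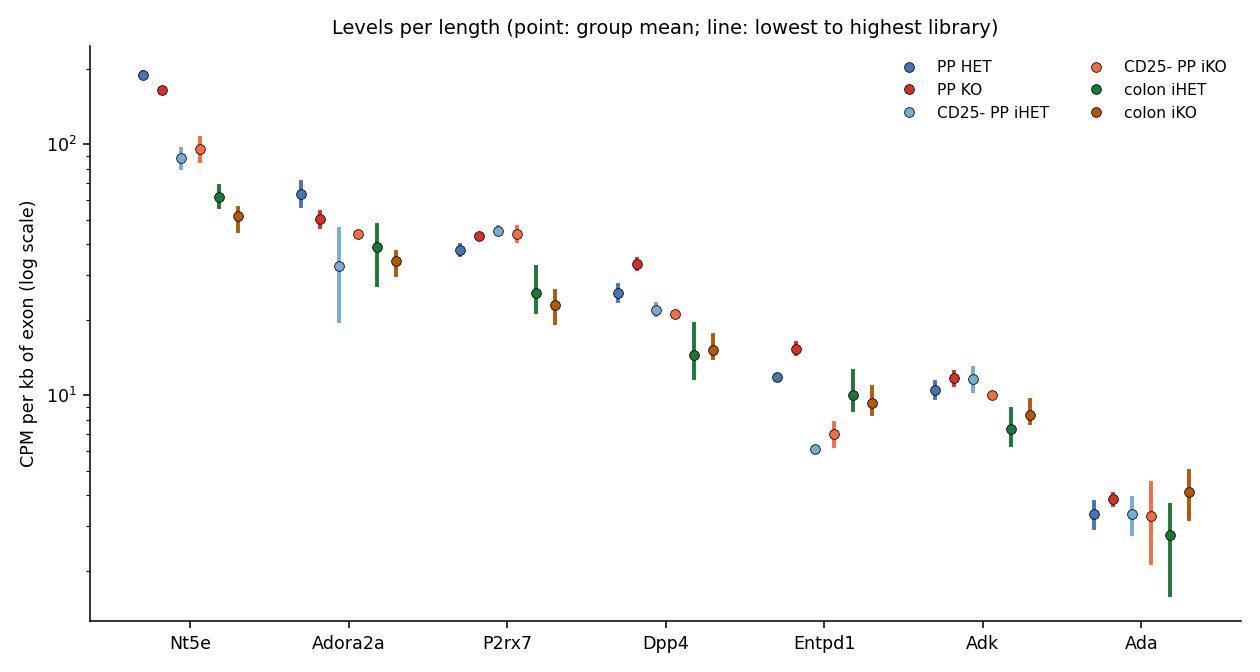
Level of each gene in CPM per kb of exon (log axis), with genes ordered by their mean in PP Tregs of HET mice; points are group means of 2 or 3 libraries and lines run from the lowest to the highest library. Nt5e lies highest in all 6 groups (189 CPM per kb in PP HET) and Ada lowest (3.36). The mean of P2rx7 lies above that of Adora2a in CD25- PP iHET Tregs, but their libraries overlap. In CD25- PP iKO Tregs the means are 43.9 and 43.7. The PP HET and PP KO groups come from the other line and were normalised separately.

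The next question was whether loss of JunB changed these genes in PP Tregs. None of the 7 was called in the comparison of KO with HET, in which edgeR called 409 of 12224 genes (3.35%). Entpd1 and Dpp4 had the largest differences, about 1.30-fold higher in KO with FDR of 0.0892 and 0.0849. At an unadjusted p under 0.05 there were 4 members (Entpd1, Adora2a, P2rx7 and Dpp4), where 14% of all genes reached that level. The median log2 fold change was 0.18 over the members and 0.0030 over all genes tested.

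The ectoenzymes had estimates of opposite sign in PP Tregs. Entpd1 measured 66.8 and 65.0 CPM in the HET libraries and 89.9 and 81.1 CPM in the KO libraries. Both KO libraries lay above both HET libraries, and the log2 fold change was 0.38 (SE 0.0957, 95% CI 0.16 to 0.60). Nt5e measured 1580 and 1667 CPM in the HET libraries against 1400 and 1426 CPM in the KO libraries. Here the KO libraries were the lower ones, by -0.20 on the log2 scale (SE 0.0897, 95% CI -0.41 to 0.0065, FDR 0.377). Neither enzyme passed the threshold.

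Dpp4 went the way of Entpd1. It read 150 and 174 CPM (HET) against 202 and 220 CPM (KO), a log2 fold change of 0.38 (SE 0.0954, 95% CI 0.16 to 0.60). The KO libraries were again the higher pair. The receptor Adora2a gave 173 and 216 CPM (HET) against 164 and 144 CPM (KO), which is -0.34 on the log2 scale (SE 0.118, 95% CI -0.61 to -0.066, FDR 0.219). Its groups lay close together, with KO number 1 only just below HET number 1. P2rx7 read 236 and 217 CPM (HET) against 256 and 258 CPM (KO), with a log2 fold change of 0.18 (SE 0.0782, 95% CI 0.00039 to 0.36, FDR 0.356). Groups of HET and KO libraries did not overlap for these 5 genes, but with 2 libraries a group that held for 43.6% of all genes tested.

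The intracellular enzymes varied within groups about as much as between them. Adk read 83.1 and 96.1 CPM (HET) against 106 and 93.3 CPM (KO) (log2 fold change 0.15, SE 0.105, FDR 0.621). Ada read 5.91 and 7.54 CPM (HET) against 7.29 and 8.12 CPM (KO) (0.20, SE 0.241, FDR 0.828). The groups overlapped for both.

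Whether Entpd1, Dpp4 and Adora2a were called in PP Tregs depended on the test and the model. The exact test called Dpp4 (FDR 0.0324), DESeq2 called Entpd1 (0.0304) and Dpp4 (0.0219), and leaving out the filter on low counts called Entpd1 (0.0152), Adora2a (0.0152) and Dpp4 (0.00173) with edgeR. With mouse number as a block all 3 were called (0.0152, 0.0471 and 0.00322 in the same order). Without any 1 of the 4 libraries no member was called. Markers of other cells moved with genotype in the same libraries: 8 of 10 epithelial genes fell (sums of 135 to 168 CPM in HET and 50.1 to 57.6 in KO), as did 7 of 10 genes of follicular T cells (1818 to 2058 and 1059 to 1100 CPM). Of the 10 Treg markers only 2 were called, Foxp3 (83.2 and 89.6 CPM in HET, 122 and 124 in KO) and Il2ra (463 and 478, 683 and 882), both higher. By estimate 7 of the 10 were higher in KO. B cell genes summed to 1013 to 1314 CPM in HET and 618 to 902 in KO, with 1 of 10 called. Cytotoxic lymphocyte genes summed to 86.1 to 99.0 CPM in HET and 54.0 to 57.6 in KO, with 2 of 7 called lower (Nkg7 and Klrb1c). None of 8 myeloid and 3 stromal genes tested was called. The part of these shifts in the values of the 7 genes was not tested.

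**Figure D2:**
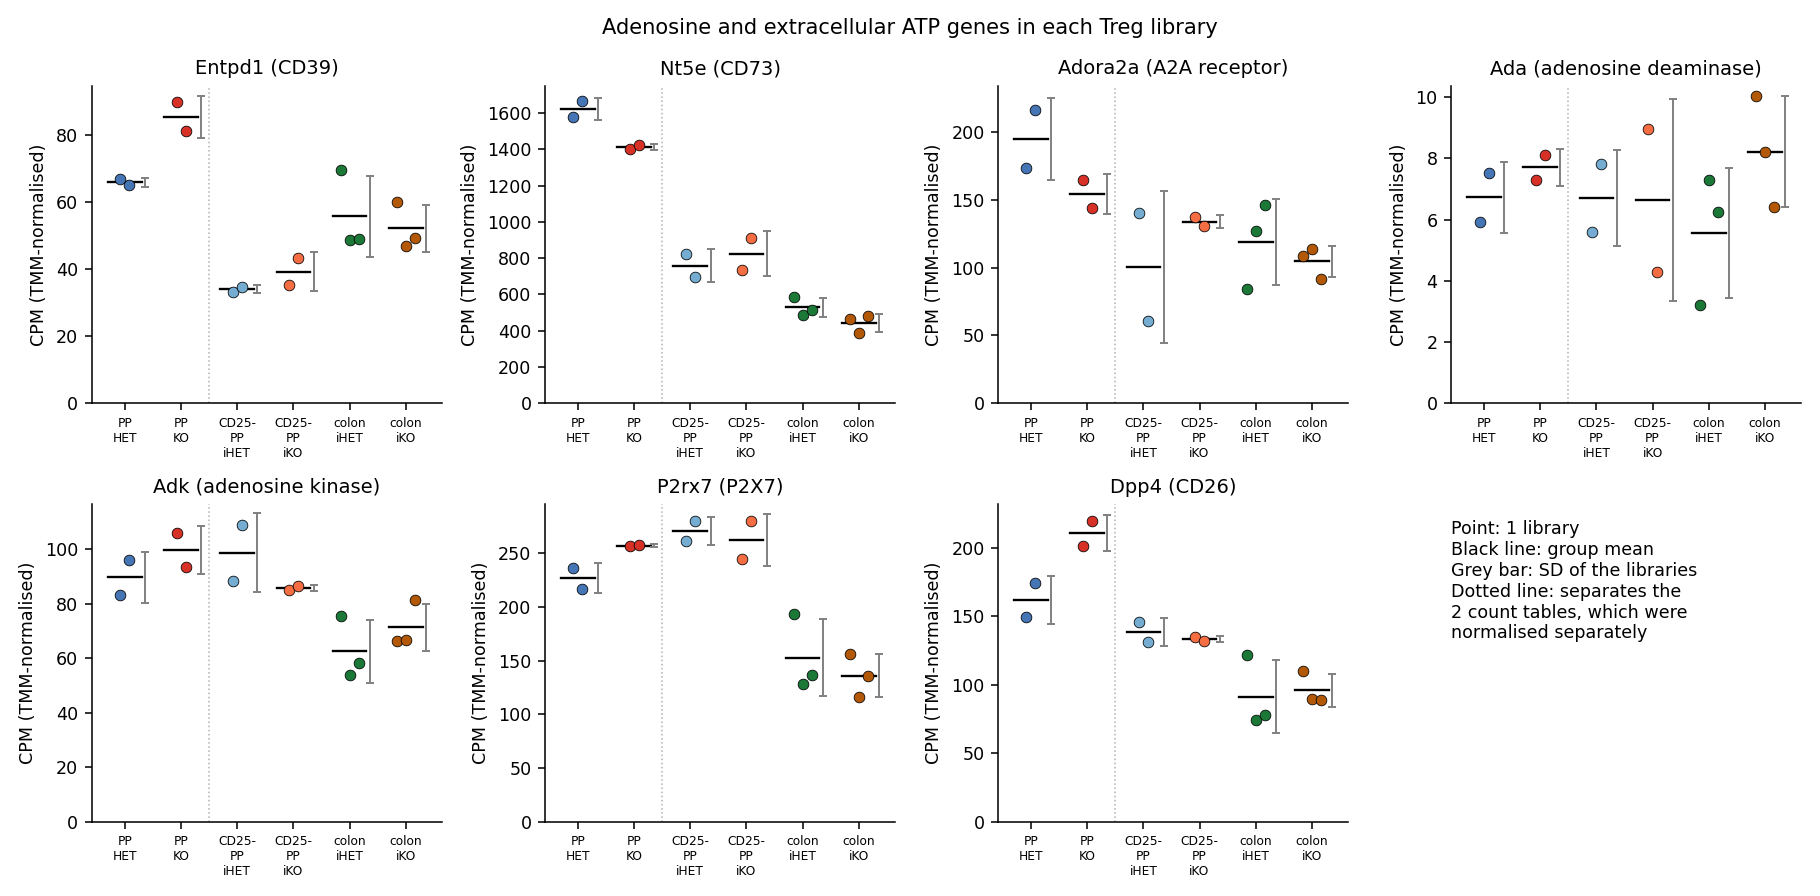
CPM of each of the 7 genes in every library, on linear axes from 0; points are libraries, black lines group means, grey bars SD, and the dotted line separates the 2 count tables, which were normalised separately. In the inducible line all 6 colonic libraries of P2rx7 (116 to 194 CPM) lie below the 4 CD25- PP libraries (245 to 280 CPM), and the CD25- PP iHET libraries of Adora2a stand apart at 140 and 60.7 CPM.

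No difference with inducible deletion of Junb was detectable for the 7 genes in CD25- PP Tregs. No gene of 17079 was called there in edgeR's quasi-likelihood test (0%), with 618 at an unadjusted p under 0.05 and 43 by the exact test and 35 by DESeq2, none of them a member. The FDR of every member was 0.999. P2rx7, at 261 and 280 CPM in iHET and 245 and 280 CPM in iKO, had a log2 fold change of -0.05 with a 95% CI from -0.37 to 0.27. Dpp4, at 146 and 132 CPM in iHET and 135 and 132 CPM in iKO, had -0.06 (95% CI -0.36 to 0.23). Both intervals include 0, so a difference was not detectable in the mRNA of either gene.

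Entpd1 and Adk were the members whose iHET and iKO libraries did not overlap in CD25- PP Tregs, as was so for 32.2% of all genes. Entpd1 read 33.1 and 34.8 CPM (iHET) against 35.1 and 43.4 CPM (iKO) (log2 fold change 0.20, SE 0.168). Adk read 88.4 and 109 CPM (iHET) against 84.8 and 86.5 CPM (iKO) (-0.21, SE 0.146). In both cases the gap between the groups was smaller than the spread within one of them. Nt5e was at 825 and 694 CPM in iHET and 737 and 912 CPM in iKO (0.11, SE 0.162). Ada was at 5.60 and 7.82 CPM in iHET and 8.97 and 4.30 CPM in iKO (-0.02, SE 0.405).

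Adora2a rested on 1 library. It read 140 and 60.7 CPM (iHET) against 137 and 131 CPM (iKO), with a log2 fold change of 0.41 (SE 0.354, 95% CI -0.45 to 1.27). Without iHET number 1, the low library stood alone and the difference became 1.13 with an FDR of 0.0363. Without iHET number 2 it was -0.08 with an FDR of 0.9996. The low library was also the lowest of the 4 in Pde4d (59.6 CPM, against 91.2 to 102 in the others), which encodes a cyclic AMP phosphodiesterase. It was lowest in some whole lists, among them cyclic AMP genes (sum of 2442 CPM, 3028 to 3271 in the others), Treg markers (6523, 7538 to 7711) and follicular T cell genes (1551, 1964 to 2142). In other lists it was the highest: intracellular enzymes (700 CPM, 578 to 620 in the others), ATP release (151, 136 to 140), myeloid (104, 60.9 to 83.8) and stromal genes (170, 110 to 145). Their part in the Adora2a value was not tested.

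In coLP Tregs the deletion left 1 of 16313 genes called (0.00613%), Junb itself, with 632 at an unadjusted p under 0.05, and no member was among the genes called by edgeR's quasi-likelihood or likelihood ratio test or by DESeq2. Nt5e came closest. It read 586, 486 and 511 CPM in iHET and 464, 388 and 481 CPM in iKO Tregs. All 3 iKO libraries lay below all 3 iHET libraries, as was so in 1 direction or the other for 8.3% of genes, and the log2 fold change was -0.25 (SE 0.104, 95% CI -0.52 to 0.0081, unadjusted p of 0.0555, FDR 0.947).

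The remaining members overlapped between iHET and iKO in the colon. Entpd1 differed by -0.09 on the log2 scale (SE 0.117), P2rx7 by -0.16 (SE 0.105), Dpp4 by 0.10 (SE 0.122), Adk by 0.20 (SE 0.160) and Adora2a by -0.16 (SE 0.203). Adora2a had no common direction over the 3 mouse numbers, with 0.36, -0.16 and -0.67. Ada had the largest estimate of the set, 0.60 (SE 0.378, 95% CI -0.35 to 1.55). Its iHET libraries read 3.20, 7.28 and 6.23 CPM and its iKO libraries 10.03, 8.21 and 6.41 CPM. By mouse number the difference was 1.65, 0.17 and 0.04, with most of it in number 1.

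**Figure D3:**
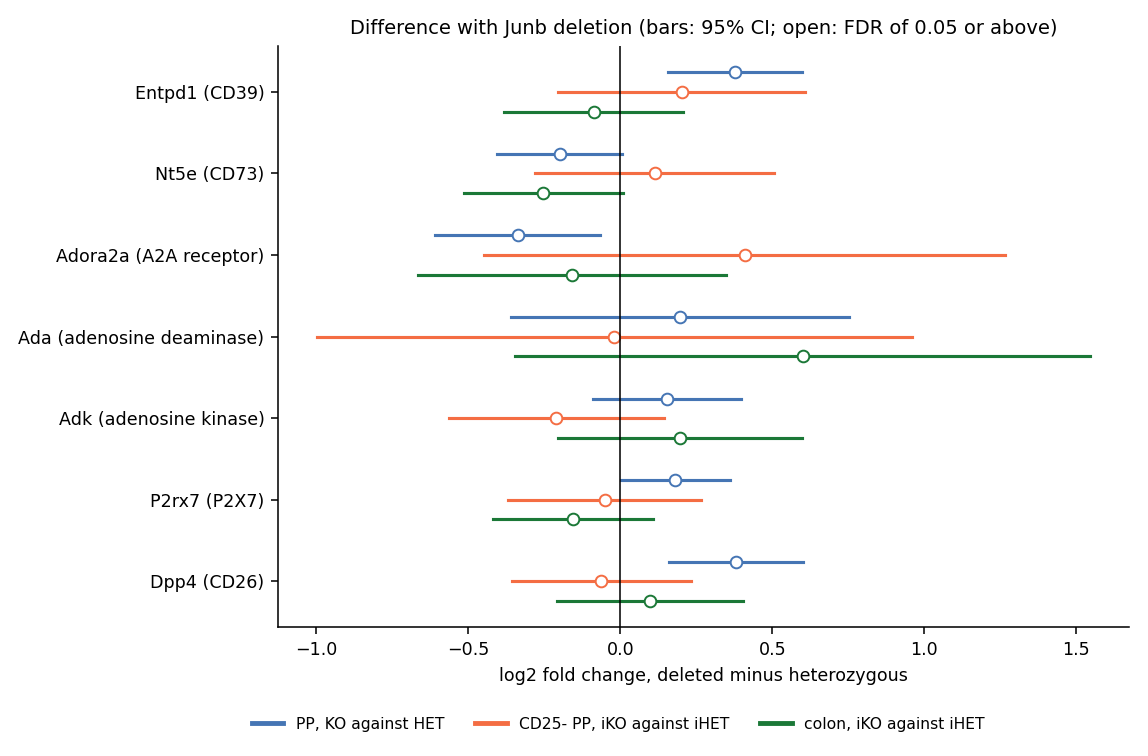
Log2 fold change of each gene with Junb deletion in PP, CD25- PP and coLP Tregs, with bars for the 95% confidence interval; open points have an FDR of 0.05 or above. All 21 points are open, and the intervals of Entpd1 and Dpp4 (0.16 to 0.60), of Adora2a (-0.61 to -0.066) and, barely, of P2rx7 (0.00039 to 0.36) in PP Tregs lie off 0.

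Between the organs most of the 7 genes differed. Colonic and CD25- PP Tregs of the inducible line were compared in 1 fit of 10 libraries, a comparison that was not part of the study. Organ is confounded with the sort gate, since CD25+ cells were left out in PP only. It is also confounded with the preparation, since incubations with DTT and EDTA, Dispase and a Percoll gradient were described for the colon only. These cannot be told apart from the organ. Averaged over both genotypes, a contrast added after the data were seen, 5 of the 7 genes were called, where 3227 of 18626 genes were (17.3%). P2rx7, Nt5e, Dpp4 and Adk were lower and Entpd1 was higher in the colon, and for the same 5 the 6 colonic libraries lay wholly to 1 side of the 4 CD25- PP libraries, as for 16.4% of genes. The median absolute log2 difference was 0.54 over the members and 0.31 over all genes.

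P2rx7 showed the largest difference of the 7. It was at 261, 280, 245 and 280 CPM in the 4 CD25- PP libraries (2 iHET, then 2 iKO), and at 194, 128, 137, 156, 116 and 136 CPM in the 6 colonic ones (3 iHET, then 3 iKO). Every colonic library lay below every CD25- PP library. The averaged log2 difference was -0.89 (SE 0.135, 95% CI -1.19 to -0.58, FDR 0.00234), or 0.541-fold. In the fit of 10 libraries it was also called within genotypes, at -0.83 in iHET (FDR 0.0324; 6.45% of genes called) and -0.95 in iKO Tregs (FDR 0.0276; 4.07% called). By number it was -0.43 and -0.65 in the male and -1.13 and -1.27 in the female mice of number 2. The labels do not say whether PP and colonic libraries of 1 number come from the same mouse, so these are differences between libraries that share a number and a sex. P2rx7 was called in the averaged contrast without each of the 10 libraries in turn (FDR 0.000442 to 0.0147).

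The call within 1 genotype was less secure. With mouse number as a block P2rx7 was called in neither genotype (FDR 0.0578 in iHET and 0.0581 in iKO), and with iHET libraries fitted alone it was not called there (0.0972). In iHET Tregs that of P2rx7 was lost without coLP iHET number 2 (FDR 0.0914) or 3 (0.0748), CD25- PP iHET number 1 (0.0911) or 2 (0.219), or CD25- PP iKO number 1 (0.0506) or 2 (0.0505). In iKO Tregs it was lost without coLP iKO number 2 (0.0962) or 3 (0.0729) or CD25- PP iKO number 1 (0.102) or 2 (0.200). The fold change kept its sign in all of these.

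Nt5e was lower in the colon too. The CD25- PP libraries ran from 694 to 912 CPM and the colonic ones from 388 to 586 CPM, without overlap. The averaged log2 difference was -0.71 (SE 0.109, 95% CI -0.95 to -0.46, FDR 0.00242), and the call held without each of the 10 libraries (FDR 0.00200 to 0.0159). Within genotypes it was -0.89 in iKO (FDR 0.0152) and -0.52 in iHET Tregs (FDR 0.0731). The first was lost without coLP iKO number 2 (0.0623) or CD25- PP iKO number 1 (0.0545) or 2 (0.152). The interaction of organ and genotype was -0.37 with a 95% CI from -0.85 to 0.12, so the genotypes were not shown to differ.

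Entpd1, the enzyme upstream of CD73, ran the other way. CD25- PP libraries read 33.1, 34.8, 35.1 and 43.4 CPM and colonic libraries 69.7, 48.8, 48.9, 60.1, 47.0 and 49.4 CPM. The averaged difference was 0.56 (SE 0.137, 95% CI 0.26 to 0.87, FDR 0.0223), a 1.48-fold higher level. It was not called without CD25- PP iHET number 1 (0.0737) or 2 (0.0723) or CD25- PP iKO number 1 (0.0880), nor within iHET (0.71, FDR 0.0616) or iKO Tregs (0.41, FDR 0.268). Both ectoenzymes thus differed between the organs in opposite directions in the same libraries.

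Dpp4 and Adk were lower in the colon with less margin. Dpp4 ran from 132 to 146 CPM in CD25- PP and from 74.2 to 122 CPM in colonic libraries, with an averaged difference of -0.54 (SE 0.146, FDR 0.0314). Its call was kept only without coLP iHET number 1 (0.00185) or coLP iKO number 1 (0.0357), the male mice, and lost without each of the other 8 libraries (0.0511 to 0.0946). Adk ran from 84.8 to 109 CPM in CD25- PP and from 53.9 to 81.3 CPM in colonic libraries, a difference of -0.46 (SE 0.123, FDR 0.0283). It was lost without coLP iHET number 2 (0.0548), coLP iKO number 1 (0.0584) or 2 (0.0633), CD25- PP iHET number 2 (0.118), or CD25- PP iKO number 1 (0.0722) or 2 (0.0865). With mouse number as a block, Adk alone of the 5 was no longer called.

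The male colonic iHET library was the closest to the CD25- PP libraries for P2rx7, Dpp4 and Nt5e (586 CPM for Nt5e). For Adk it was the closest of the 3 colonic iHET libraries (75.4 CPM), with coLP iKO number 3 closer still at 81.3 CPM. Without the male colonic iHET library, P2rx7 (FDR 0.00543), Dpp4 (0.00767), Adk (0.0129) and Nt5e (0.0439) were all called lower in the colon among iHET mice. By number, Dpp4 differed by -0.26 in males and -0.83 in females of number 2 in iHET, and by -0.29 and -0.56 in iKO Tregs. Adk differed by -0.23 and -1.02 in iHET and by -0.36 and -0.38 in iKO Tregs. Entpd1 showed the reverse pattern, with 1.07 in males and 0.49 in females in iHET and 0.78 and 0.11 in iKO. With 1 male per group, sex and mouse cannot be told apart.

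Adora2a and Ada showed no common direction between the organs. Adora2a ranged from 60.7 to 140 CPM in CD25- PP and from 84.2 to 146 CPM in colonic libraries, with an averaged difference of -0.05 (SE 0.224, 95% CI -0.55 to 0.45, FDR 0.892). In iHET Tregs it was -0.73 by the male and 1.07 by the female mice of number 2. Ada ranged from 4.30 to 8.97 CPM in CD25- PP and from 3.20 to 10.03 CPM in colonic libraries (0.02, SE 0.293, FDR 0.971). The interval of the Ada difference, from -0.63 to 0.67, is the widest of the set.

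No gene of 18626 was called for the interaction of organ and genotype by edgeR's quasi-likelihood test (0%), with 622 at an unadjusted p under 0.05, 2 by the likelihood ratio test (Gstm1 and Sdsl) and 2 by DESeq2 (Gstm1 and Tnfrsf8), none of the pathway. The interactions of the members ran from -0.60 for Adora2a to 0.57 for Ada, and each 95% CI included 0. For P2rx7 it was -0.12 with an interval from -0.73 to 0.48. A genotype effect on the organ difference inside that interval was not detectable with these libraries.

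**Figure D4:**
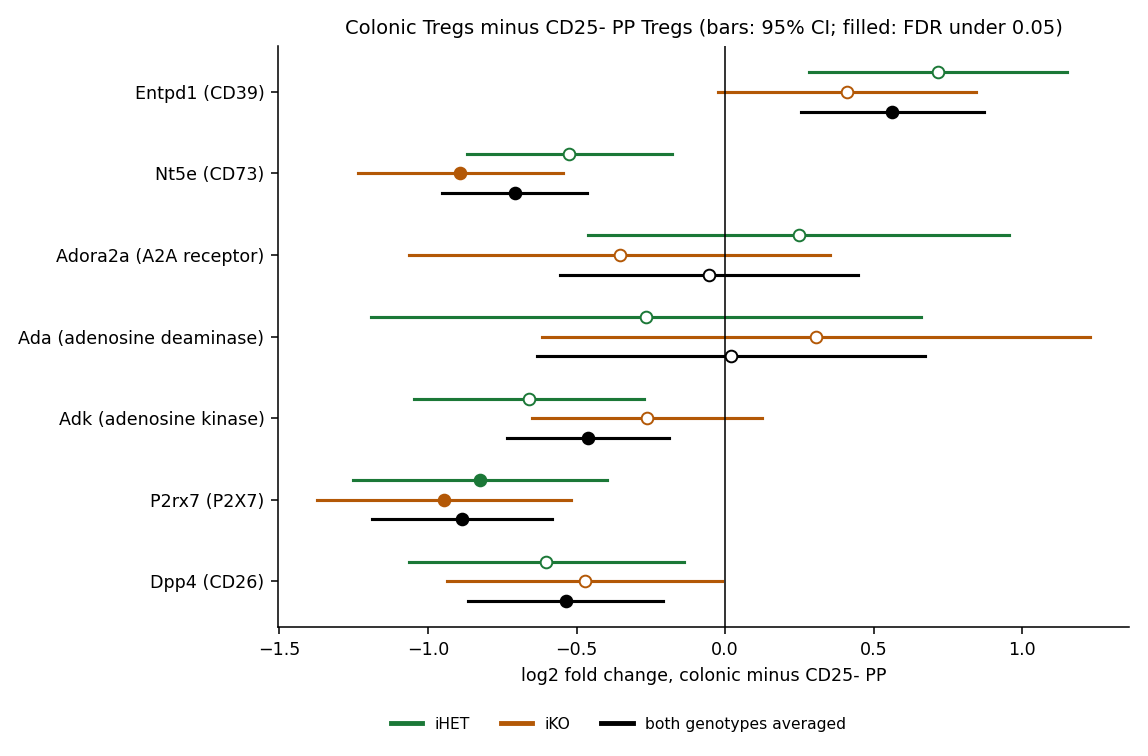
Log2 difference of colonic minus CD25- PP Tregs for each gene in iHET, in iKO and averaged over both, with bars for the 95% confidence interval and filled points for an FDR under 0.05. P2rx7 is filled in all 3 (-0.83, -0.95 and -0.89), Nt5e in iKO and on average, and Entpd1 lies on the other side of 0 from P2rx7, Nt5e, Adk and Dpp4.

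Markers of other cells and the gate itself differed between the same libraries. Il2ra, whose protein CD25 was used in the gate, ran from 185 to 239 CPM in CD25- PP and from 561 to 752 CPM in colonic libraries. Of the 10 Treg markers 9 were called, with Foxp3, Il2ra, Ctla4, Tnfrsf18 and Tnfrsf4 higher and Ikzf2, Ikzf4, Cd3e and Trac lower in the colon, and their sums were 6523 to 7711 and 8239 to 9734 CPM. Follicular T cell genes, of which 8 of 10 were called lower in the colon, summed to 1551 to 2142 CPM in CD25- PP and to 1136 to 1644 CPM in colonic libraries. Genes of stroma (5 of 8 called higher; 110 to 170 and 195 to 1102 CPM), epithelium (4 of 10 higher; 146 to 367 and 160 to 1751 CPM) and myeloid cells (4 of 9 higher; 60.9 to 104 and 102 to 299 CPM) were also higher in the colon. B cell genes summed to 259 to 505 and to 334 to 1152 CPM, with 1 of 10 called higher and 2 lower. Cytotoxic lymphocyte genes summed to 96.0 to 129 and to 40.4 to 70.5 CPM, with 4 of 8 lower and 1 higher. Their part in the differences of the 7 genes was not tested.

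P2rx7, Nt5e, Dpp4 and Adk were positively correlated over the 10 libraries of the inducible line. Pearson's r of log2 CPM was 0.944 between Nt5e and P2rx7, 0.916 between P2rx7 and Dpp4 and 0.823 between Adk and P2rx7, and the lowest of the 6 pairs was 0.682 between Nt5e and Adk. Entpd1 had its lowest r with Nt5e, -0.579. These libraries share 2 organs and 2 gates, so the points are not independent and r carries that split. Among 10447 protein-coding genes with a mean of at least 5 CPM, the 3 genes most like P2rx7 were Dlg3 (0.990), Inpp5b (0.989) and Trim12a (0.989). Those most like Nt5e were Gzma (0.975), which encodes a granzyme, Ppt1 (0.973) and Tpcn1 (0.971). For Dpp4 they were Dtx1 (0.974), Slc45a4 (0.971) and Gimap3 (0.971), and for Adk Prmt9 (0.977), Gm8369 (0.970) and Ms4a6b (0.969). For Entpd1 they were Tap2 (0.946), a subunit of the peptide transporter for MHC class I, Ddx54 (0.945) and Pdia4 (0.940). Adora2a had Tlcd1 (0.971), Cebpb (0.932) and Tpm4 (0.915), and Ada had lower values, with Skp1a (0.904), Bccip (0.878) and Twistnb (0.877). With the mean of each group subtracted, r of these genes with their member ran from 0.797 (Nt5e and Gzma) to 0.974 (P2rx7 and Trim12a). The genes were picked by r over the same libraries, so these values do not test the likeness apart from the organs.

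The wider pathway was followed in 72 further genes of 8 lists, covering extracellular and intracellular enzymes, transporters, receptors, ATP release and cyclic AMP signalling. In PP Tregs 2 of the 48 tested were called (4.17%), a share near the 3.35% of all genes. Entpd8, another ectonucleotidase, was counted 49 and 29 times in HET and 0 and 2 times in KO libraries (FDR 0.0247), beside the fall of epithelial markers above. Without either HET library it no longer passed the filter on low counts and was not tested. Pde4d was at 77.6 and 83.9 CPM (HET) against 107 and 113 CPM (KO), a log2 fold change of 0.44 (SE 0.0858, FDR 0.0339). Its call was lost without HET number 1, HET number 2 or KO number 2, with an FDR of up to 0.344. None of 58 was called in CD25- PP or in colonic Tregs by edgeR's quasi-likelihood test, where the exact test called 1 in CD25- PP Tregs (Slc28a1) and DESeq2 called 1 in each (Slc28a1 and Pde4b).

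Between the organs 20 of 62 were called in the averaged contrast, 9 higher and 11 lower in the colon (10% and 7.29% of all genes), with a median log2 difference of 0.07. By list, 3 of 9 extracellular enzymes, 5 of 15 intracellular enzymes, 4 of 7 transporters, 1 of 2 adenosine receptors, 2 of 6 P2Y receptors, 1 of 3 ATP release genes and 4 of 16 cyclic AMP genes were called, and none of 4 P2X receptors. Within genotypes there were 11 called in iHET (17.7%, against 6.45% of all genes) and 5 in iKO Tregs (8.06%, against 4.07%). The interaction called none of the 62, and neither did its alternatives.

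The ART2 genes, whose product acts on P2X7, were lower in the colon. Art2b was at 220, 250, 163 and 233 CPM in CD25- PP libraries and between 27.2 and 75.0 CPM in colonic ones, a log2 difference of -2.21 (SE 0.282, FDR 0.00104). Art2a-ps, annotated as a polymorphic pseudogene, ran from 32.7 to 54.8 and from 6.70 to 8.50 CPM, with -2.49 (SE 0.122, FDR 1.1e-05). Both were called without each of the 10 libraries. They are close copies of each other on chromosome 7, and only uniquely mapped reads were counted, so how reads split between them is uncertain. P2rx4, which encodes another ATP-gated channel and was picked after its values were seen, ran from 40.3 to 62.2 CPM with no call (0.08, SE 0.130, FDR 0.724).

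Enzymes and transporters of nucleosides went in both directions. Dck, which encodes deoxycytidine kinase, ran from 95.7 to 149 CPM in CD25- PP and from 51.5 to 74.7 CPM in colonic libraries (-0.85, SE 0.140, FDR 0.00337). Slc28a2, a concentrative nucleoside transporter, was lower (-0.51, SE 0.115, FDR 0.0151) and Slc29a2, an equilibrative one, higher (0.69, SE 0.154, FDR 0.0152). The call of Slc28a2 was lost without CD25- PP iKO number 1 (FDR 0.0635), and that of Slc29a2 without CD25- PP iHET number 2 or iKO number 2, with an FDR of up to 0.0693. Slc28a1 was counted 51 and 91 times in CD25- PP iHET libraries, 3 and 6 times in iKO ones and at most 7 times in any colonic library. It was called lower in the colon in iHET Tregs (FDR 0.0417), a call lost without coLP iHET number 1 or 2, coLP iKO number 1, or CD25- PP iKO number 1 or 2, with an FDR of up to 0.116. Without either CD25- PP iHET library it no longer passed the filter on low counts and was not tested. The listed epithelial genes summed to 367 and 146 CPM in CD25- PP iHET and 210 and 148 CPM in CD25- PP iKO libraries. In coLP iHET libraries they summed to 233 to 1238 CPM. The part of epithelial RNA in the Slc28a1 counts was not tested. Acpp, a phosphatase that can make adenosine from AMP, was higher in the colon (18.2 to 35.4 against 10.8 to 16.7 CPM; 1.01, SE 0.167, FDR 0.00419).

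Receptors and cyclic AMP genes completed the list. P2ry10b was lower in the colon (0.787 to 2.00 against 3.68 to 8.23 CPM; -2.10, SE 0.296, FDR 0.00157). It is counted here with the P2Y receptors by its symbol, and whether it binds nucleotides was not examined. P2ry2 was called higher, from 2, 2, 17 and 13 counts in CD25- PP and 17 to 117 counts in colonic libraries. The other adenosine receptors together stayed at or below 5.02 CPM in every library. Pde7a, a cyclic AMP phosphodiesterase, was lower (31.3 to 62.0 against 90.3 to 112 CPM; -1.12, SE 0.142, FDR 0.000988), while Prkar1a, a regulatory subunit of protein kinase A, was higher (1216 to 1519 against 938 to 1085 CPM; 0.43, SE 0.0801, FDR 0.00675). Pde4b, another phosphodiesterase of this kind, was called higher on average (0.60, SE 0.140, FDR 0.0187), a call lost without coLP iKO number 2, CD25- PP iHET number 2 or CD25- PP iKO number 2. Within iHET Tregs it was also called (0.80, FDR 0.0469), a call lost without each library but coLP iKO number 3, with an FDR of up to 0.351.

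**Figure D5:**
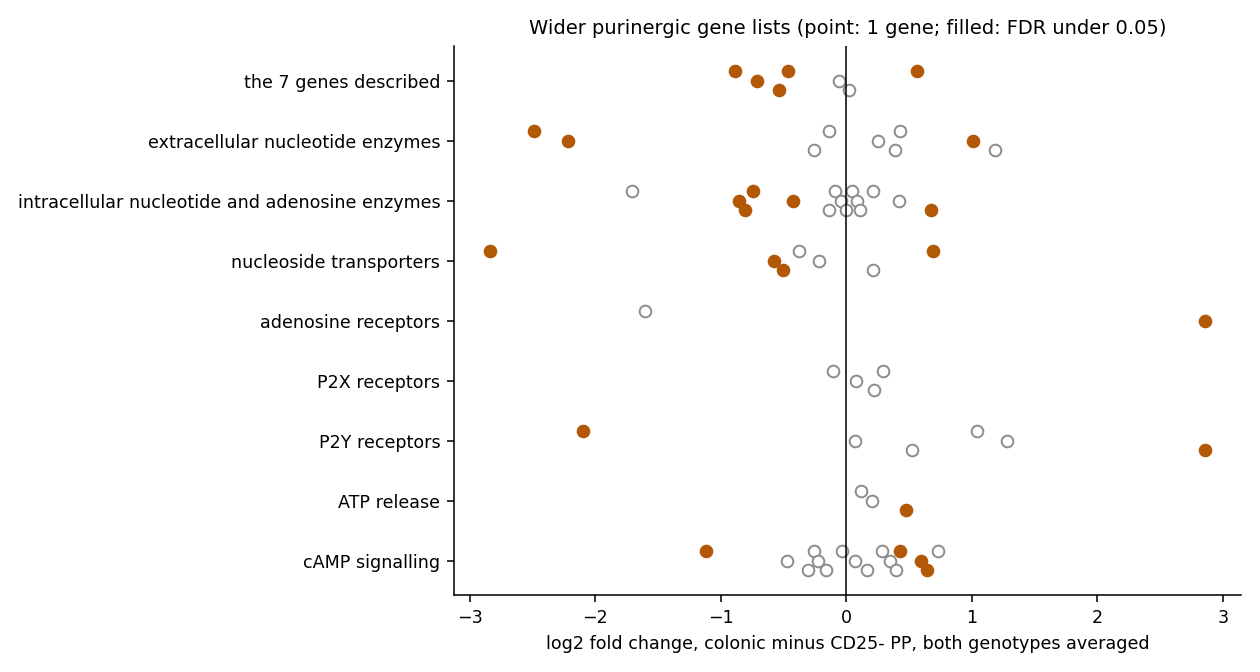
Log2 difference of colonic minus CD25- PP Tregs, averaged over both genotypes, for the 7 genes (top row) and the 8 wider lists; points are genes and filled points have an FDR under 0.05. Art2a-ps (-2.49) and Art2b (-2.21) lie far to the left among the extracellular enzymes, and called genes stand on both sides of 0 in 5 of the lists.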

How the data were processed

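RNA-seq counts per gene were used for 14 libraries of sorted Tregs. The authors trimmed reads with Trim Galore, aligned them to mm10 with STAR without multi-mapped reads, then ran featureCounts (default settings, unstranded) over the genes of GENCODE; reverse reads of the inducible line were omitted. The deposited values are raw whole-number counts. Sequencing differed between the Foxp3-YFP-cre and the inducible line, which were therefore not compared by a test.

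Gene IDs were matched to GENCODE M21 (GRCm38), with 55394 of 55487 and 53706 of 53801 found. Genes reaching 1 CPM in 2 or more libraries (3 for coLP) were kept, normalized by TMM, and tested with the quasi-likelihood test of edgeR 4.0.16 in R 4.3.3 (prior count 1, Benjamini-Hochberg FDR under 0.05); all 7 genes passed the filter in each comparison. Each genotype comparison was fitted on its own libraries, for coLP with mouse number in place of the cage term of the study, since the study describes 1 iHET and 1 iKO mouse per cage but the labels do not say that the number is the cage. Organs were compared in 1 fit of 4 groups. SE are those of the fitted contrast, scaled by the quasi-dispersion. Alternatives were the tests of the study (exact or likelihood ratio), DESeq2 1.42.0, its size factors, no filter, a prior count of 0.125, mouse number as a block or not, other sets of libraries in the fit and leaving out each library. Scripts were tested on simulated data. Figures were drawn with matplotlib 3.10.9.

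Members and gene lists were chosen with earlier results of these data known. All 7 members are named in each comparison, and at most 10 wider genes past the threshold by lowest p. For each member the 3 genes most like it by Pearson's r are given. Replicates within a group are separate mice, 2 or 3 a group, and whether libraries of 1 number from both organs share a mouse is not given in the sources used here. Counting floors of 3 counts cover counting error only, since reads carry no molecular identifiers. No column of per-sample values was left out.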

Additional observations from a re-analysis of the deposited data

How the results depend on the processing

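No alternative setting other than leaving out a library turned the direction of a member, and 18 values of members crossed to an FDR under 0.05 while 4 crossed back. The 7 members had at least 90 counts in every library, and each group held 2 or 3 mice. The cause of each change below was not tested, except that no filter tests more genes.

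In PP Tregs (409 genes, 0 members) the exact test called 689 genes and 1 member, DESeq2 696 and 2, no filter 1305 and 3, and the replicate block 1015 and 3 (Entpd1, Adora2a and Dpp4); leaving out 1 library gave 36 (HET number 1) to 390 genes, 55 without HET number 2, and 0 members. In CD25- PP Tregs (0 genes) the exact test called 43, DESeq2 35, no filter 232 and the fit of 10 libraries 1 (Junb), with 0 members each; leaving out 1 library gave 2 to 77 genes and 0 to 1 members (77 and 1, Adora2a, without iHET number 1). In coLP Tregs (1 gene) the likelihood ratio test called 25, DESeq2 50 and no filter 24; leaving out 1 library gave 0 to 5 genes and 0 members, with 0 without number 1 or 2 of either genotype, and dropping the block changed neither count.

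Between organs in iHET mice (1201 genes, 1 member) the likelihood ratio test called 1988 genes, DESeq2 2504 and no filter 2848, each with 4 members, the replicate block 900 and 0 members, and the 5 libraries alone 430 and 0; leaving out 1 library gave 143 to 1700 genes and 0 to 4 members, with 614 without coLP iHET number 2, and 721 and 143 without CD25- PP iHET number 1 and 2. In iKO mice (758 genes, 2 members) the counts were 1622, 2233 and 2348, the block 430 with 1 member (Nt5e), and the 5 libraries alone 1267; leaving out 1 library gave 79 to 1096 genes and 0 to 2 members, with 495, 179 and 364 without coLP iKO number 1, 2 and 3, and 79 and 91 without CD25- PP iKO number 1 and 2. Averaged over genotypes (3227 genes, 5 members) the replicate block left 2362 genes and 4 members, and leaving out 1 library gave 1581 to 3959 genes and 2 to 5 members, with 2114 without coLP iKO number 2, 1581 without CD25- PP iHET number 2, and 2075 and 1707 without CD25- PP iKO number 1 and 2. For the interaction (0 genes) the likelihood ratio test called 2, DESeq2 2 and no filter 282; leaving out 1 library gave 0 genes and 0 members. Without the filter the median log2 difference of all genes moved from -0.0086 to -0.20 in iHET, from 0.00072 to -0.17 on average and from -0.00016 to 0.15 for the interaction.

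Leaving out a library turned the sign only of members that were not called. In CD25- PP Tregs the log2 fold change ran from -0.14 to 0.0087 for Dpp4, from -0.050 to 0.25 for Nt5e, from -0.076 to 1.13 for Adora2a, from -0.65 to 0.41 for Ada and from -0.15 to 0.037 for P2rx7. In coLP Tregs it ran from -0.42 to 0.10 for Adora2a. Between organs it ran from -0.51 to 0.0064 for Ada and from -0.24 to 0.97 for Adora2a in iHET, from -0.13 to 0.93 for Ada in iKO, and from -0.30 to 0.31 for Adora2a and from -0.20 to 0.33 for Ada on average. For the interaction it ran from -0.24 to 0.082 for P2rx7 and from -0.0090 to 0.39 for Dpp4. A lone library left in a group was assumed to vary like the others.

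Whether mouse numbers pair libraries was not settled by these data. Deviations of same-numbered libraries correlated at 0.0982 in PP, at 0.0682 in CD25- PP, and at 0.148, 0.219 and -0.0126 in coLP Tregs, and at 0.139 and 0.0115 in iHET and 0.0783 and -0.0396 in iKO between organs. In coLP Tregs numbers 1 and 2 correlated best with their own number and number 3 did not; the block was kept there because the study used cage as a term.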
